A study of Homo sapiens with 6 samples.

Results

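Complement genes were examined in IMR90 lung fibroblasts exposed to oncostatin M, which belongs to the interleukin-6 family of cytokines. The list holds 36 genes of the classical, lectin, alternative and terminal pathways, their regulators and the receptors of the released peptides, chosen by symbol. C4A and C4B lay only on probe sets with several symbols and were not analysed here, which left 34 members among 18417 genes with a level. Where a gene had several probe sets, the one with the highest mean over all arrays was used.

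The oncostatin M group was 3 samples of IMR90 cells given a single dose of 10 ng/mL of the recombinant human protein, and the control group was 3 samples of the same cells left untreated. Total RNA of each sample was hybridised to its own gene-level Affymetrix array. No source used here gives the length of exposure. IMR90 is 1 fibroblast line, and the values describe that line. Nothing in the labels states that replicates were grown apart, so p-values reflect only how much these 6 samples varied, a spread that may be technical.

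Complement is a cascade of plasma proteases and pore-forming proteins that marks surfaces for uptake and lyses cells. In the classical pathway C1q binds antibody or surface patterns and activates its attached proteases C1r and C1s, which cleave C4 and C2. In the lectin pathway mannose-binding lectin and ficolins do so through MASP proteases. Both routes and the alternative pathway meet at C3, and cleavage of C5 starts the terminal pore. The liver makes most plasma complement, and fibroblasts are a known local source of C1r, C1s and C1 inhibitor.

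Levels are log2 values made with RMA, a method that corrects background and equalises arrays. Each change is the oncostatin M mean less the control mean on that scale, with its standard error (SE). Probe sets bind with different strengths, so levels of members were not compared with each other. For the same reason the comparison with silent genes below is only a rough guide. Array-wide correlations lay between 0.9893 and 0.9968. Oncostatin M replicate 1 stood apart: its genes deviated from their group means with an SD of 0.168, against 0.083 to 0.115 on the other arrays, and it had the highest mean over 429 olfactory receptor and keratin-associated protein genes (5.01, against 4.82 to 4.93). Those 429 genes, taken as silent in fibroblasts, served as a guide to low levels. Their 95th percentile was 6.71 in the oncostatin M group and 6.69 in the control group. The range of silent genes below means levels up to that percentile, and some silent genes lay above it. All 11 fibroblast markers lay above that bound in both groups. Of 10 macrophage or monocyte markers only CD68 and TYROBP did, with CSF1R and PTPRC below it, and of 10 hepatocyte markers only APOA1 did, with ALB below it. The mean level of the macrophage list was 5.78 to 6.02 in the oncostatin M group and 5.82 to 5.84 in the control group, that of the hepatocyte list was 4.81 to 5.01 in the oncostatin M group and 4.84 to 4.90 in the control group, and neither list held a gene past the threshold. Other marker lists had 2 of 8 (endothelial), 2 of 8 (epithelial) and 4 of 5 (smooth muscle) genes above the bound in each group, and KRT18 was higher and CNN1 lower. Of the fibroblast markers LUM and PDGFRA were higher. Whether these shifts have a part in the complement values was not tested.

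After oncostatin M, 5 complement genes rose and none fell. They were C1R, C1S and C1RL of the classical group, MASP1 of the lectin group, and SERPING1, the inhibitor that inactivates C1r and C1s. MASP1 rose 2.27-fold, C1RL 2.12-fold, C1R 1.81-fold, C1S 1.58-fold and SERPING1 1.39-fold. The genes of C1q and C2, the other lectin pathway genes, the alternative and terminal pathways, the 8 other regulators and the receptors gave no call. These counts use an adjusted p under 0.05 (limma, Benjamini-Hochberg over 18417 genes). They compare with 1.72% of all genes higher and 1.7% lower, against 14.7% of the 34 members higher. That share is a description only. The list was chosen with earlier results of these data known, and C1R, C1S and C1RL are neighbours on 1 chromosome. The median change of the 34 members was 0.069, with 24 above 0, beside 0.00060 over all genes, with 9251 of 18417 above 0. Among the 22 members within the range of silent genes in both groups, 15 lay above 0. Without oncostatin M replicate 1 the median of the 34 members was 0.014, with 19 above 0, and the number higher was again 5. It was 4 without oncostatin M replicate 2 or without control replicate 1, 2 or 3, in each case because SERPING1 did not pass. In a culture like this, more RNA per cell and more cells that make it cannot be told apart.

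**Figure D1:**
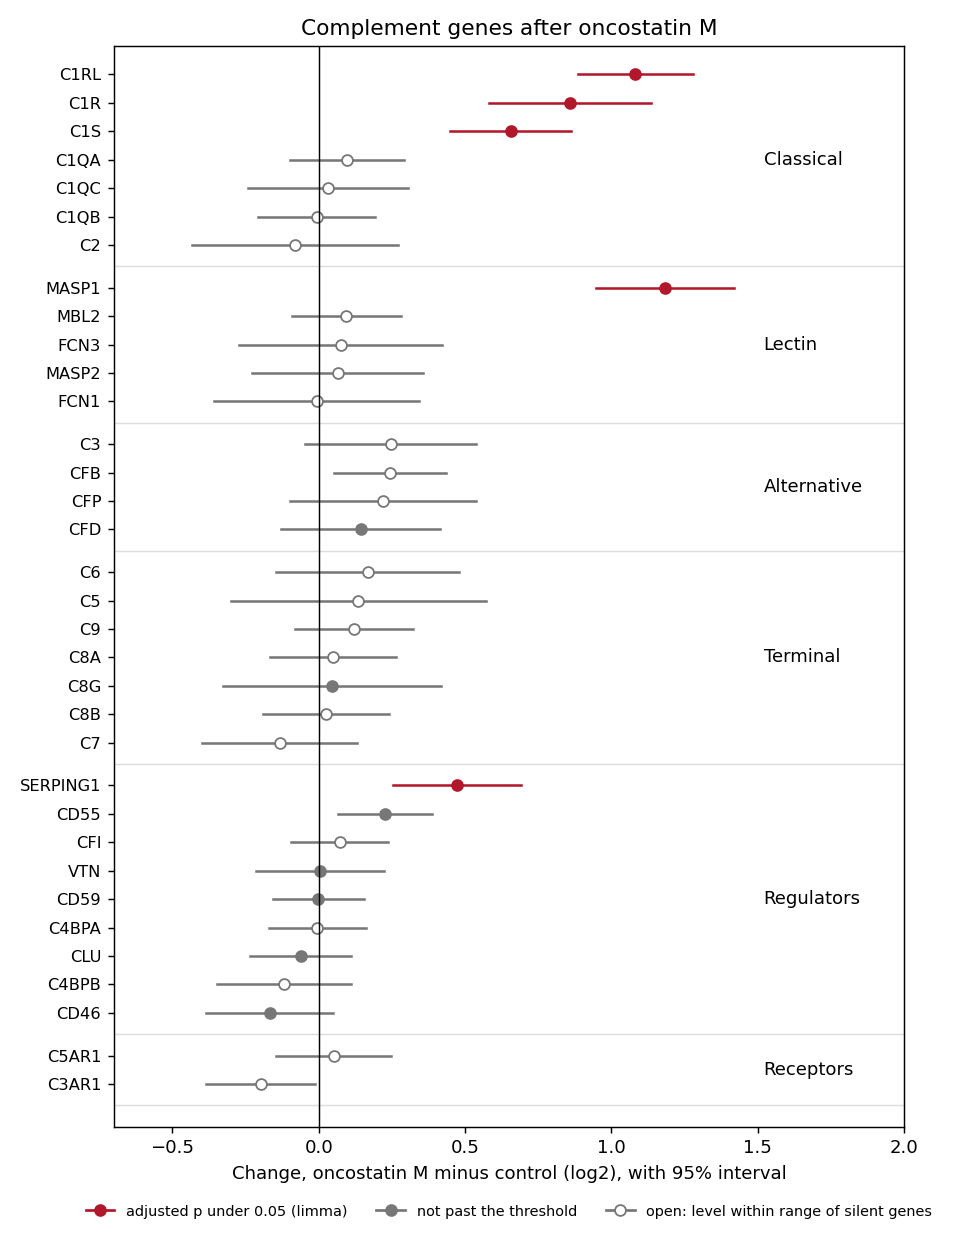
Change of each of the 34 complement genes (oncostatin M minus control, log2, points) with its 95% interval (lines), grouped by pathway and sorted by size within each group. Red marks the 5 genes past an adjusted p of 0.05, all with filled points, and open points are genes whose mean lay within the range of silent genes in both groups.

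C1R encodes the protease that is activated first within the C1 complex. Its level was 11.22, 11.13 and 10.91 on oncostatin M arrays, against 10.35, 10.34 and 10.00 on control arrays. All 3 oncostatin M values lay above all control values, and the lowest value of each group was that of replicate 3. The change was 0.86 (SE 0.12, adjusted p = 0.00685, limma, n = 3 each). It was 0.79 without oncostatin M replicate 1.

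C1S encodes the partner protease, which C1r cleaves and which then cuts C4 and C2. Its level was 11.30, 11.27 and 11.12 on oncostatin M arrays, against 10.65, 10.63 and 10.43 on control arrays. The groups did not overlap, and replicate 3 was again lowest in each. The change was 0.66 (SE 0.09, adjusted p = 0.00612, limma, n = 3 each), and the 95% intervals of C1R (0.58 to 1.14) and C1S (0.45 to 0.86) overlapped.

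C1RL encodes a C1r-like protease known for cleaving the haptoglobin precursor in the secretory pathway. Its level was 8.74, 8.64 and 8.66 on oncostatin M arrays, against 7.46, 7.71 and 7.63 on control arrays. The 3 treated values were close together, and the lowest of them lay 0.93 above the highest control value. The change was 1.08 (SE 0.09, adjusted p = 0.000551, limma, n = 3 each).

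The other members of the classical group gave no call. C1QA, C1QB and C1QC, the chains of the recognition protein C1q, differed by 0.10, -0.01 and 0.03, with adjusted p from 0.846 to 0.994 (limma). C2, which supplies the catalytic part of the classical C3 convertase, differed by -0.08 (adjusted p = 0.963, limma). All 4 had means within the range of silent genes in both groups, so no fold is given. The 2 other probe sets of C2 held the same values as each other on every array and gave -0.10.

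C1S, C1R and C1RL lie side by side on chromosome 12 in the RefSeq annotation, so they are neighbours as well as partners. The measured gene next to C1S, LPCAT3, which encodes a lysophospholipid acyltransferase, was higher too. Its level was 10.86, 10.93 and 10.90 on oncostatin M arrays, against 10.06, 10.05 and 10.24 on control arrays, a change of 0.78 (SE 0.08, adjusted p = 0.00143, limma, n = 3 each). Thus 4 measured genes in a row rose, and LPCAT3 passed with any 1 array left out. The genes flanking those 4 did not pass. EMG1 and SCARNA12 beside LPCAT3 differed by 0.08 and 0.10, and C1RL-AS1, RBP5 and CLSTN3 beside C1RL by 0.13, 0.14 and 0.20, with adjusted p from 0.268 to 0.926 (limma). C1RL-AS1 lay within the range of silent genes in both groups.

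SERPING1 on chromosome 11 also had a neighbour that rose. UBE2L6, which encodes a conjugating enzyme for the ubiquitin-like protein ISG15, had levels of 9.09, 8.76 and 8.85 on oncostatin M arrays, against 8.40, 8.37 and 8.35 on control arrays. Its change was 0.53 (SE 0.09, adjusted p = 0.0204, limma, n = 3 each), and the call was lost without oncostatin M replicate 3 (adjusted p = 0.0523) or without control replicate 1, 2 or 3 (0.102, 0.0931 and 0.0882). The other 5 genes around SERPING1 differed by -0.08 to 0.16. Of these, MIR130A and YPEL4 lay within the range of silent genes in both groups. None of the 6 measured genes around MASP1 on chromosome 3 passed, and their changes ran from -0.26 to 0.21. RTP1, RTP4, SST and RTP2 lay within the range of silent genes in both groups, and RPL39L did in the oncostatin M group. That limits what these arrays can show for them.

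**Figure D2:**
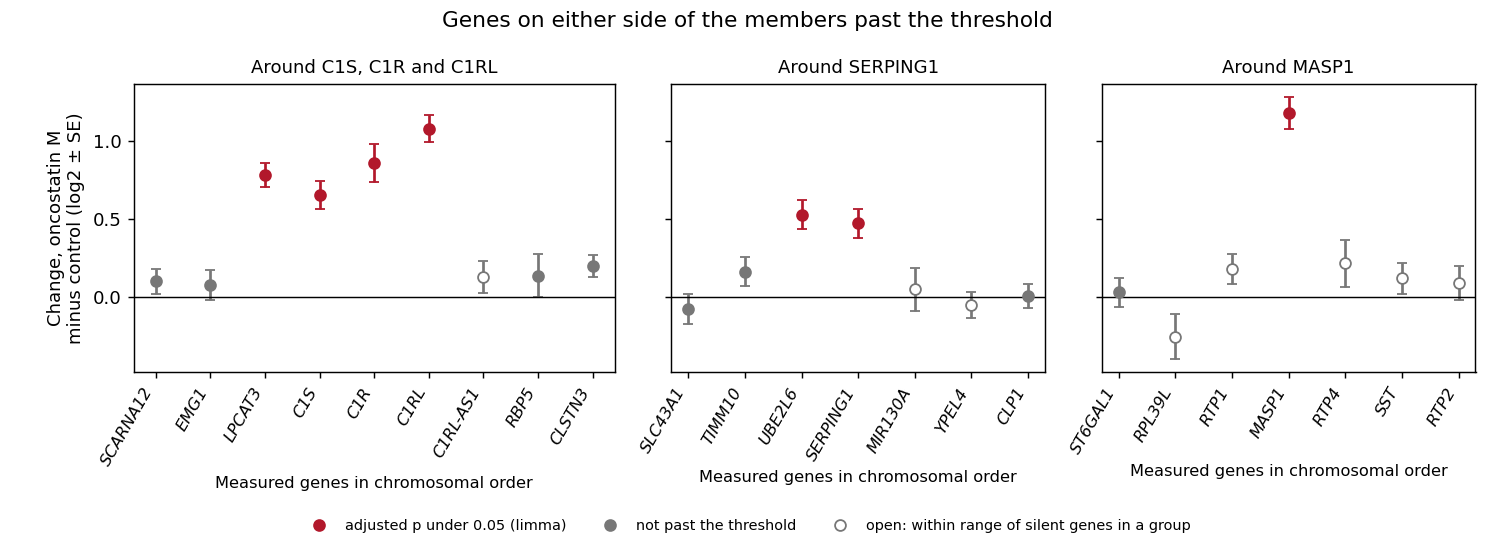
Change (oncostatin M minus control, log2, points, bars are SE) of the 3 measured genes on each side of every member past the threshold, in chromosomal order. LPCAT3, C1S, C1R and C1RL (0.78, 0.66, 0.86 and 1.08) form a run, and UBE2L6 stands beside SERPING1 (0.53 and 0.47). No neighbour of MASP1 (1.18) passed, and most of its neighbours are open points. Open points lay within the range of silent genes in a group.

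Promoter sequence, from 250 bases before to 50 after a start site, was read for these genes from RefSeq (GRCh38.p14), where 27 of the 34 members had an entry. C1S and SERPING1 had no entry, so their promoters were not searched. The windows are shown because C1R and C1RL moved together and because CFB, which gave no call, holds the same motif. Capitals mark TTCNNNGAA, the palindrome bound by STAT factors.
C1RL promoter (chr12:7109165-7109464, minus strand): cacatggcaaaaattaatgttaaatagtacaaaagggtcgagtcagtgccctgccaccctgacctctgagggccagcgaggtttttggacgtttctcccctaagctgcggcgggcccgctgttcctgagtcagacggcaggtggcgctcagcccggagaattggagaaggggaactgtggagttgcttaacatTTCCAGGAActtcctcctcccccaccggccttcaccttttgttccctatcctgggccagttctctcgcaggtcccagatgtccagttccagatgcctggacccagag
C1R promoter, upstream start (chr12:7092396-7092695, minus strand): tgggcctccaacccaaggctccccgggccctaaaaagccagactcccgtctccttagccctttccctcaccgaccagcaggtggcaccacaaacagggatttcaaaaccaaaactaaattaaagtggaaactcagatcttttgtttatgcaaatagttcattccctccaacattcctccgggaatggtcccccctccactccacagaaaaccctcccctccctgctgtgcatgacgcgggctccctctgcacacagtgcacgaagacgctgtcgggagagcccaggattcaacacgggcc
C1R promoter, downstream start (chr12:7091844-7092143, minus strand): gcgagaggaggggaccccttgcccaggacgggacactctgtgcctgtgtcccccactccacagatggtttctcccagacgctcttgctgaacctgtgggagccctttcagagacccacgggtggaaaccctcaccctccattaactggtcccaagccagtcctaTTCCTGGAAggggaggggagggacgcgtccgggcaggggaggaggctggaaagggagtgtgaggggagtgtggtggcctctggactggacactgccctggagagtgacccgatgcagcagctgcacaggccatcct
MASP1 promoter (chr3:187291688-187291987, minus strand): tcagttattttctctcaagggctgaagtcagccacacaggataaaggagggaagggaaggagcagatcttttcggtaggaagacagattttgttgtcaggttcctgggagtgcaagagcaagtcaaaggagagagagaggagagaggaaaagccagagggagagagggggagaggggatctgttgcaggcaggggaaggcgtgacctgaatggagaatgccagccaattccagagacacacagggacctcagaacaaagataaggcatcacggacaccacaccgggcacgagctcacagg
CFB promoter (chr6:31945845-31946144, plus strand): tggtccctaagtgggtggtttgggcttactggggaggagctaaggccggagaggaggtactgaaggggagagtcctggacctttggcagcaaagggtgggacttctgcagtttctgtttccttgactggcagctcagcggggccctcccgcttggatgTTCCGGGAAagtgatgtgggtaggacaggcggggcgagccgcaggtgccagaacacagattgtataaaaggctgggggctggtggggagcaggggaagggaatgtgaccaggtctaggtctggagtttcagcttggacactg

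Counted from the start site, the motif began at position -57 of C1RL as TTCCAGGAA, at -86 of the downstream C1R start as TTCCTGGAA, and at -92 of CFB as TTCCGGGAA. The upstream C1R window and the MASP1 window do not hold these letters. Nor did the promoters of LPCAT3 and UBE2L6. Among the 27 members, 10 had the motif in at least 1 window (37.0%), against 9.38% of 27305 genes in the table, with 1.48 windows per gene in the members and 1.29 in all. Those 10 were C1R and C1RL, which rose, and C1QA, C4BPB, C7, CD59, CFB, MASP2, MBL2 and VTN, which gave no call. TTGCNNAA, an approximate C/EBP site, was in 8 of 27 members (29.6%) against 12.7% of genes, C1R and C1RL among them. TGANTCA, the AP-1 site, was in 3 members (11.1%) against 9.37%, C1RL, C3AR1 and CD59, and the interferon response element (GAAA, any 2 bases, GAAA) in CFB alone (3.7% against 4.38%). All motifs were searched on both strands, and a match describes letters only. STAT and C/EBP matches shared no base in the C1R and C1RL windows.

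MASP1 encodes a protease of the lectin pathway, and by splicing also the protease MASP-3 and the inhibitor MAp44, which 1 gene-level probe set cannot tell apart. Its level was 8.07, 8.15 and 7.86 on oncostatin M arrays, against 6.81, 6.98 and 6.74 on control arrays. The groups were 0.87 apart, and the control values lay just above the range of silent genes. The change was 1.18 (SE 0.10, adjusted p = 0.000787, limma, n = 3 each), the largest among the 34 members.

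The other 4 lectin genes gave no call. MASP2, the protease that cleaves C4 and C2 in this pathway, differed by 0.07, the mannose-binding lectin gene MBL2 by 0.09, and the ficolin genes FCN1 and FCN3 by -0.01 and 0.07 (adjusted p from 0.837 to 0.996, limma). All 4 lay within the range of silent genes. FCN3 was 6.46 on oncostatin M replicate 1 and 5.90 and 5.92 on the other treated arrays, against 6.02, 6.13 and 5.90 on control arrays.

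**Figure D3:**
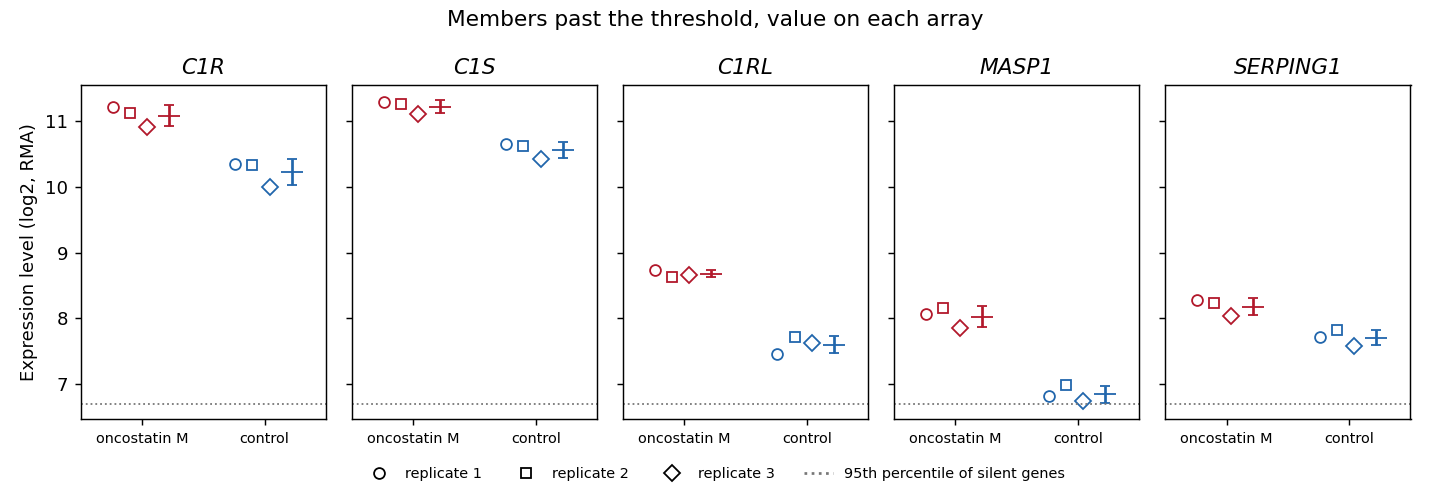
Expression level (log2, RMA) of the 5 complement genes past the threshold on each array, oncostatin M left and control right, with symbols for replicates and a bar for mean ± SD (n = 3). In every panel the 3 treated arrays lie above the 3 control arrays, and the dotted line is the 95th percentile of silent genes in control.

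In the alternative group all 4 members lay above 0 and none passed, with a median of 0.23. C3, the component on which all pathways meet, had levels of 6.02, 5.57 and 5.56 on oncostatin M arrays, against 5.55, 5.46 and 5.40 on control arrays. The groups did not overlap, but the gap between them was small and the highest treated value was that of replicate 1. The change was 0.25 (SE 0.13, adjusted p = 0.569, limma, n = 3 each) and 0.095 without that array. CFB, whose product is the protease of the alternative C3 convertase, had levels of 6.54, 6.61 and 6.41 on oncostatin M arrays, against 6.29, 6.35 and 6.18 on control arrays. Here the groups were also apart, with a change of 0.24 (SE 0.08, adjusted p = 0.245, limma, n = 3 each), 0.23 without replicate 1, and 0.26 and 0.09 on its other probe sets. C3 and CFB both lay within the range of silent genes in both groups, so no fold is given. Without oncostatin M replicate 1 the median of the group was 0.094.

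CFD, the protease factor D that cleaves factor B, had levels of 7.92, 7.49 and 7.56 on oncostatin M arrays, against 7.43, 7.60 and 7.52 on control arrays. The groups overlapped, with replicate 1 again highest, and the change was 0.14 (SE 0.12, 95% interval -0.13 to 0.42, adjusted p = 0.822, limma, n = 3 each). CFP, which encodes the convertase stabiliser properdin, differed by 0.22 (adjusted p = 0.698, limma) within the range of silent genes.

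None of the 7 terminal genes passed, and none had groups apart. C5, C6, C7, C8A, C8B, C8G and C9 encode the proteins that assemble the membrane pore, and their changes ran from -0.13 (C7) to 0.17 (C6), with a median of 0.049. Adjusted p ran from 0.777 to 0.981 (limma). C8G, which encodes the lipocalin-like chain of C8, was the only one above the range of silent genes, at 8.01, 7.41 and 7.52 on oncostatin M arrays, against 7.58, 7.80 and 7.43 on control arrays. C5 varied most after treatment, at 5.69, 6.34 and 6.42 on oncostatin M arrays, against 6.11, 5.81 and 6.12 on control arrays. Its lowest value was that of oncostatin M replicate 1, the array on which 14 of the 22 members within the silent range were highest in their group. In the control group replicate 2 was the highest for 16 of the 22.

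**Figure D4:**
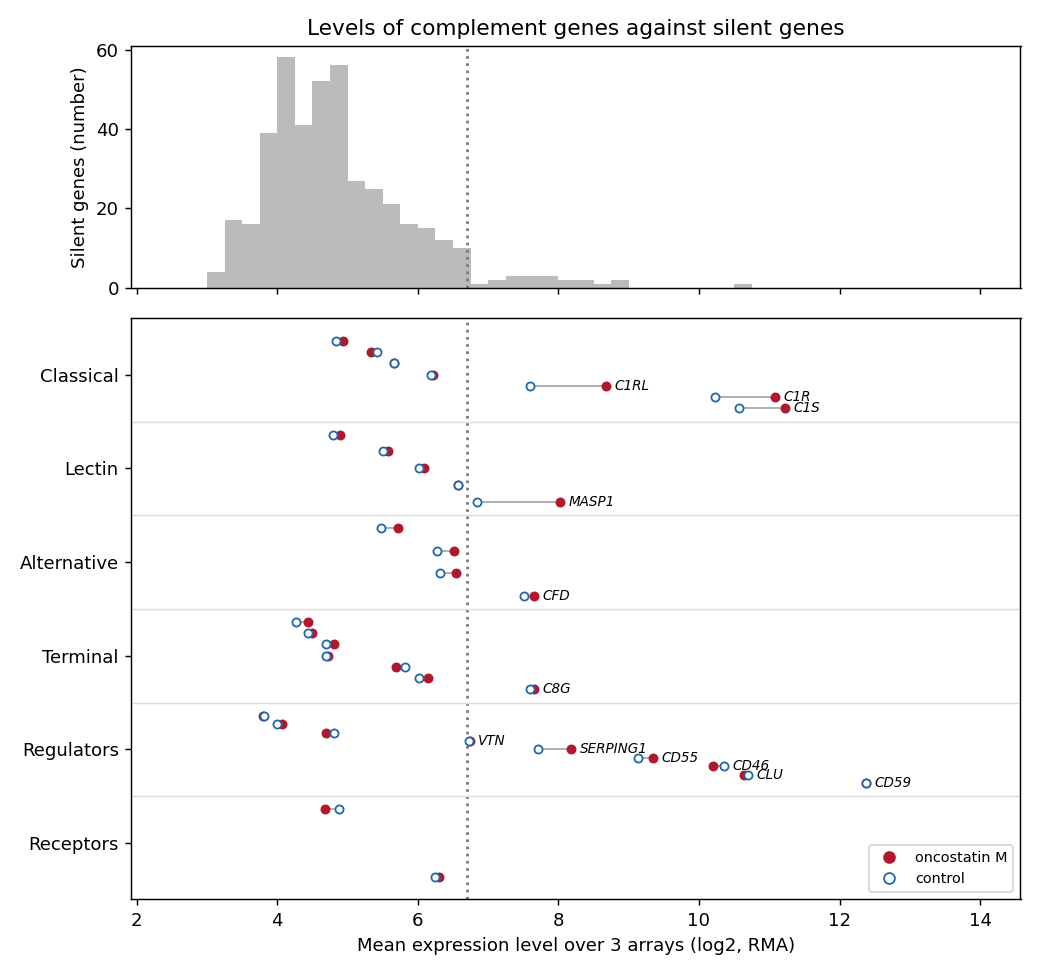
Mean level (log2, RMA, 3 arrays a group) of each complement gene after oncostatin M (filled) and in control (open), by group, under the control levels of 429 silent genes (bars). The dotted line is the 95th percentile of the silent genes in control, and the 12 named genes lie above it in both groups.

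Among the 9 regulators SERPING1 rose. It encodes C1 inhibitor, a serpin that also inactivates kallikrein. Its level was 8.27, 8.23 and 8.04 on oncostatin M arrays, against 7.71, 7.83 and 7.58 on control arrays. The groups did not overlap, with replicate 3 lowest in each. The change was 0.47 (SE 0.09, adjusted p = 0.0350, limma, n = 3 each). That call was lost without oncostatin M replicate 2 (adjusted p = 0.122) and without control replicate 1, 2 or 3 (0.161, 0.0663 and 0.142), while the change stayed between 0.41 and 0.54. C1R, C1S, C1RL and MASP1 each passed with any 1 array left out, with adjusted p up to 0.0374 (limma, C1R without control replicate 1).

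The membrane regulators gave no call. CD55, which speeds the decay of C3 convertases, had levels of 9.32, 9.42 and 9.31 on oncostatin M arrays, against 9.17, 9.11 and 9.10 on control arrays. The groups were apart by a small step, and the change was 0.22 (SE 0.07, 95% interval 0.06 to 0.39, adjusted p = 0.182, limma, n = 3 each). CD46, a cofactor for the cleavage of C3b and C4b, had levels of 10.06, 10.27 and 10.26 on oncostatin M arrays, against 10.27, 10.30 and 10.51 on control arrays. These groups nearly touched, and the change was -0.17 (SE 0.09, adjusted p = 0.632, limma, n = 3 each), or -0.10 without oncostatin M replicate 1. CD59, which blocks the pore, had levels of 12.31, 12.40 and 12.41 on oncostatin M arrays, against 12.38, 12.36 and 12.39 on control arrays. Its groups overlapped, and the 95% interval of the change was -0.16 to 0.15 (adjusted p = 0.998, limma, n = 3 each).

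CLU, which encodes the fluid-phase inhibitor clusterin, had levels of 10.70, 10.66 and 10.55 on oncostatin M arrays, against 10.71, 10.74 and 10.63 on control arrays. The groups overlapped, with a change of -0.06 (95% interval -0.23 to 0.11, adjusted p = 0.923, limma, n = 3 each). VTN, which encodes vitronectin, differed by 0.00, at the edge of the silent range. CFI, the protease factor I that degrades C3b and C4b, was at 4.07, 4.14 and 3.98 on oncostatin M arrays and 3.97, 3.97 and 4.03 on control arrays. That lies within the silent range, as did C4BPA and C4BPB, the chains of C4b-binding protein, which differed by -0.01 and -0.12. The median of the 9 regulators was -0.0016.

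Neither receptor gene passed. C3AR1, the receptor of the peptide C3a, was at 4.80, 4.61 and 4.65 on oncostatin M arrays, against 4.80, 4.93 and 4.92 on control arrays, and C5AR1, the receptor of C5a, differed by 0.05. Every treated value of C3AR1 was below every control value by a narrow margin, with a change of -0.20 (SE 0.08, adjusted p = 0.375, limma, n = 3 each), but the level lay within the range of silent genes. Over the 34 members, 8 had groups apart with oncostatin M higher and 2 with it lower, against 7.43% and 10.6% of all genes.

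Outside the members, 32 of 39 other complement-related genes (initiators, receptors, inhibitors and C1q-like proteins) had a single-symbol probe set. COLEC12, which encodes a collectin that acts as a scavenger receptor, was the 1 that passed. Its level was 8.10, 8.16 and 7.92 on oncostatin M arrays, against 7.13, 7.10 and 7.16 on control arrays. The groups were far apart, with a change of 0.93 (1.90-fold, SE 0.08, adjusted p = 0.000792, limma, n = 3 each). That is 3.12% of the list higher and none lower, beside 1.72% and 1.7% of all genes. The list had a median change of 0.019, with 22 genes above 0. Without oncostatin M replicate 1 that median was -0.035, with 14 above 0.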

How the data were processed

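The 6 arrays measured total RNA of IMR90 cells, and groups and replicate numbers come from the labels. Per the submitters' processing notes, the authors used RMA and Affymetrix Expression Console 1.1, with no settings named, and the deposited values range as log2 levels do. Of 33297 probe sets the platform's gene table gave 1 symbol for 19460, several for 1754 and none for 12083.

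The 18417 genes were fitted together in limma 3.58.1 (R 4.3.3) with treatment as the sole factor, moderated variances and two-sided tests. P-values were adjusted by Benjamini-Hochberg over all genes with a threshold of 0.05. No dim gene was removed. Intervals are 95% and per gene. The number of arrays limits the precision. Motifs were searched in the RefSeq promoter table on both strands. Figures were drawn with matplotlib 3.10.9.

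Members and lists were chosen with earlier results of these data known. Values on every array are given for members past the threshold, for 8 further components and regulators, and for members whose groups did not overlap. C5, C8G and FCN3, singled out to show spread, were chosen after their values were seen. Neighbours are the 3 measured genes on each side. A planned comparison of protein sequences was not run. The labels do not say that replicate numbers mark a shared culture or day, so the numbers were not taken to pair the samples. Deviations of same-numbered arrays correlated at 0.0635, -0.456 and 0.511. With 3 arrays per group these values depend on each other, so they cannot decide on pairing. Alternatives covered scaling, probe set choice, filters, variance prior, array weights, a replicate block and each array left out.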

Additional observations from a re-analysis of the deposited data

How the results depend on the processing

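With 5 members higher as reported, 4 to 5 were higher and 0 lower under every alternative run, and C1R, C1S, C1RL, MASP1, COLEC12 and LPCAT3 passed 0.05 in each of 17 alternative fits. SERPING1 passed in 12 of 17 (adjusted p up to 0.161, limma), as did UBE2L6 (up to 0.102). The count of regulators higher was 0 with every probe set tested and at a threshold of 0.01, and 0 to 1 with 1 array left out. With array weights 1 other complement-related gene was lower (C1QTNF2, change -0.32, adjusted p = 0.0262, limma). The median change of the members was 0.184 over genes above the silent range and 0.225 over genes above the median level, where fewer members are counted, and 0.014 to 0.119 with 1 array left out. With the replicate block 5 members were higher and 0 lower, and C1R, C1S, C1RL, MASP1, SERPING1, COLEC12, LPCAT3 and UBE2L6 kept their calls, while 255 genes were higher and 223 lower. Same-numbered arrays did not deviate together in every pair. Over all genes 316 were higher and 314 lower as reported, with 667 and 610 with array weights, 175 and 112 at a threshold of 0.01, and 176 lower with every probe set tested. With 1 array left out 156 to 400 were higher and 105 to 332 lower. The lowest count came without control replicate 1. Unadjusted p under 0.05 (limma) was reached by 7 members higher, the 5 called ones with CFB and CD55, and by 1 lower (C3AR1). The share of all genes at that level was not computed, so this count has no background beside it. Of the 34 members 22 lay within the range of silent genes in both groups, which limits what these arrays can show for them.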
